A study of Vitis vinifera with 36 samples.

Results

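Ripening turns a hard, acidic, green grape into a soft, sweet and aromatic one. The genes described here are those whose transcript level was higher at harvest ripeness than at the onset of ripening in both crops of both cultivars of a double cropping vineyard. They were chosen on the deposited FPKM values (fragments counted for a gene, scaled by its transcript length and by the size of the library), with a gene missing from a library set to 0. After adding 0.1 FPKM to each group mean, the mean at stage E-L 38 had to be at least 3 times that at E-L 35 in all 4 combinations of cultivar and crop, and the E-L 38 mean had to be at least 5 FPKM in all 4. Of 28119 genes listed, 7 met this rule.

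The berries came from 7-year-old vines of the cultivars Muscat Superior and Victoria, grown under rain shelters in southern China in 2014, grafted on a rootstock of unknown identity. Each cultivar gave a winter crop, forced in August after pruning and hand defoliation, and a summer crop, forced in February. Both crops were forced with hydrogen cyanamide, an agent that breaks bud dormancy, so no group is free of it. The summer crop received it on all but the terminal bud, and the winter crop on the terminal bud and beside the pruning wound. Berries of each crop were taken at E-L 35, E-L 36 and E-L 38 of the Eichhorn-Lorenz scale, which gives 12 groups of 3 biological replicates and 36 libraries. Each replicate was a pool of 50 deseeded berries, so skin and flesh were sequenced together. The crop goes with season, forcing and sampling date, and these cannot be told apart. In bulk libraries, a lower level from fewer cells of a type and one from less RNA per cell cannot be told apart either.

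On the Eichhorn-Lorenz scale, E-L 35 is the stage at which berries begin to colour and soften, E-L 36 is an intermediate stage of sugar accumulation, and E-L 38 is harvest ripeness. In grapevine, ripening brings sugar uptake and storage in the vacuole, loosening of the cell wall, a loss of malic acid and, in the skin, the products of the flavonoid and terpenoid pathways. Abscisic acid is the hormone most closely tied to its onset in this fruit. The files do not pair gene identifiers with gene names, and none of the identifiers matched the reference table used here, so the 7 genes are given by identifier and no role is assigned to them. For the same reason the pericarp could not be checked against marker genes, and no list of ripening pathways could be counted.

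The 36 libraries held 5624449 to 18606068 counts each, with a median of 10599908. Over 17644 genes, 33 libraries correlated best with another replicate of their own group. The remaining 3, all replicate 1, correlated better with a library of another group: summer Victoria at E-L 36 (r = 0.986 with an E-L 38 library, against 0.955 with its own group), summer Muscat Superior at E-L 36 (0.982 against 0.974) and, by a narrow margin, summer Victoria at E-L 38. Results that rest on them are given with and without them. Chi-square per degree of freedom between the counts of 2 replicates was under 2, between 1.45 and 1.89, in 8 of 18 winter pairs and in 0 of 18 summer pairs. These winter replicates differed by little more than counting noise and were kept as separate samples. Whether they carry the spread between separate pools of berries cannot be told from the counts. The p-values use the spread between replicates, estimated over all 12 groups, and may be too small where these replicates understate it.

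Few genes reached the ratio in every combination. Of 8940 genes with at least 5 FPKM at E-L 38 in every combination, the ratio of 3 was reached by 81 in winter Muscat Superior, 145 in summer Muscat Superior, 90 in winter Victoria and 158 in summer Victoria. It was reached in exactly 1 combination by 242 genes, in 2 by 75, in 3 by 18 and in all 4 by 7. Of the 18 that missed 1 combination, 12 missed winter Victoria and 6 missed summer Victoria. A further 9 genes had the ratio in every combination but not the level. Just outside the ratio were VIT_212s0028g03620 with a lowest ratio of 2.85, VIT_212s0057g00310 with 2.51 and VIT_214s0066g01140 with 2.28. Just inside it were VIT_214s0066g01710 with 3.08, VIT_205s0049g01780 with 3.15 and VIT_215s0021g00540 with 3.21. Just outside the level were VIT_202s0033g00700 with 3.75 FPKM, VIT_200s0233g00030 with 2.91 FPKM and VIT_202s0154g00110 with 1.78 FPKM, each in summer Victoria. The lowest levels inside it, also in summer Victoria, were 5.27 FPKM for VIT_205s0049g01780, 6.79 FPKM for VIT_214s0066g01710 and 11.3 FPKM for VIT_214s0068g01400.

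The size of the rise differed between the 7 genes and, within a gene, between combinations. These ratios chose the genes and are a description without a test. VIT_214s0171g00100 had the largest lowest ratio: E-L 38 over E-L 35 was 11.2 in winter Muscat Superior, 29.4 in summer Muscat Superior, 43.2 in winter Victoria and 10.3 in summer Victoria. VIT_214s0068g01400 followed with 7.70, 6.54, 20.3 and 6.21 in the same order of groups. VIT_215s0021g00540 had ratios of 29.1 in winter and 11 in summer Muscat Superior, against 3.80 in winter and 3.21 in summer Victoria. VIT_205s0049g01780 had its widest ratio, 13.3, in summer Victoria, where its group means were lowest, and ratios of 3.15 to 3.82 elsewhere.

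**Figure D1:**
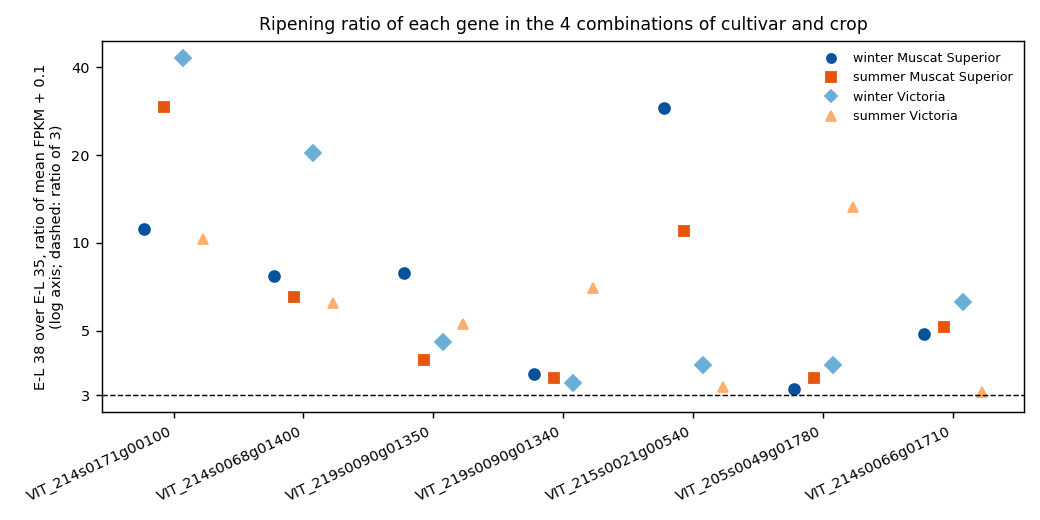
Ratio of the E-L 38 to the E-L 35 group mean (FPKM + 0.1, log axis) for each of the 7 genes, with 1 marker for each combination of cultivar and crop and the ratio of 3 dashed. The points of VIT_215s0021g00540 spread from 3.21 in summer Victoria to 29.1 in winter Muscat Superior, while those of VIT_219s0090g01340 lie between 3.30 and 6.98.

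The most abundant of the genes were VIT_219s0090g01350 and VIT_219s0090g01340, whose identifiers are consecutive. Ranked within each library by FPKM, the first lay between places 5 and 66 and the second between 6 and 85. In winter Muscat Superior, VIT_219s0090g01350 had 1129, 1068 and 1101 FPKM at E-L 35, 2512, 2499.6 and 2579 FPKM at E-L 36 and 7817, 8221 and 10007 FPKM at E-L 38. In summer Muscat Superior it had 783, 909 and 1041 FPKM at E-L 35, 2236, 2444 and 3561 FPKM at E-L 36 and 4199.9, 2619 and 3997 FPKM at E-L 38. The winter replicates of Muscat Superior lay just above the summer ones at E-L 35, overlapped them at E-L 36 and lay well above them at E-L 38. In winter Victoria it had 1530.3, 1719 and 3227 FPKM at E-L 35, 9923, 10458 and 10111 FPKM at E-L 36 and 10979.6, 9332 and 9281 FPKM at E-L 38. In summer Victoria it had 1076, 1524 and 1055 FPKM at E-L 35, 7294, 2507 and 2918 FPKM at E-L 36 and 5934, 6875 and 6476 FPKM at E-L 38. The E-L 36 and E-L 38 replicates of winter Victoria overlapped, and 1 summer library of that stage, replicate 1, stood well above the other two.

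VIT_219s0090g01340 had 3036, 2944 and 3268 FPKM at E-L 35, 7153, 7013 and 7783 FPKM at E-L 36 and 10298, 11145 and 11495 FPKM at E-L 38 in winter Muscat Superior. Summer Muscat Superior berries had 1138, 1367 and 1659.7 FPKM at E-L 35, 3577, 4702 and 5448 FPKM at E-L 36 and 4463, 4299 and 5527 FPKM at E-L 38. Every winter replicate of Muscat Superior lay above every summer one at the same stage. Winter Victoria berries had 1125, 1484 and 3634 FPKM at E-L 35, 7884, 8522 and 8600.3 FPKM at E-L 36 and 5192, 7674 and 7716 FPKM at E-L 38. Summer Victoria berries had 566, 1052 and 842 FPKM at E-L 35, 5263, 1306 and 1967 FPKM at E-L 36 and 6580.2, 7042 and 3548 FPKM at E-L 38. In winter Victoria all E-L 38 replicates lay below all E-L 36 replicates.

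The deposited counts of this pair were not whole in any of the 36 libraries, whereas their sum was whole, within 0.02 of a count, in 36 of 36. The authors' counting thus divided shared reads between both loci, and the value of each alone is uncertain. Summed, the pair held 0.338% of all FPKM in summer Victoria at E-L 35 and 2.93% in winter Muscat Superior at E-L 38, the lowest and highest of the group means. The summed ratio of E-L 38 over E-L 35 was 4.70 in winter Muscat Superior, 3.64 in summer Muscat Superior, 3.94 in winter Victoria and 5.96 in summer Victoria, so the pair as 1 feature kept both conditions of the rule. The division within the pair differed between the cultivars in its means. In winter Muscat Superior, VIT_219s0090g01350 stood at 0.357 times VIT_219s0090g01340 at E-L 35, 0.346 times at E-L 36 and 0.789 times at E-L 38. The mean ratios were 0.599 to 0.758 in summer Muscat Superior and 1.14 to 1.60 in both crops of Victoria, and the replicates of the cultivars overlapped at E-L 38 in summer.

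VIT_214s0171g00100 had the highest ratio of the 7 genes in summer Muscat Superior and winter Victoria. In winter Muscat Superior it had 19.7, 23.3 and 21.1 FPKM at E-L 35, 109, 118 and 126 FPKM at E-L 36 and 215, 198 and 308 FPKM at E-L 38. Its summer Muscat Superior values were 3.54, 3.83 and 5.82 FPKM at E-L 35, 95.6, 45.2 and 88.8 FPKM at E-L 36 and 122, 141 and 134 FPKM at E-L 38. The winter start in Muscat Superior was above every other E-L 35 library of this gene. Its winter Victoria values were 1.43, 3.15 and 1.68 FPKM at E-L 35, 58.2, 67.3 and 62.0 FPKM at E-L 36 and 114, 85.7 and 83.4 FPKM at E-L 38. Its summer Victoria values were 2.76, 1.61 and 1.99 FPKM at E-L 35, 38.0, 36.6 and 19.3 FPKM at E-L 36 and 5.56, 25 and 37.8 FPKM at E-L 38. The lowest E-L 38 value, 5.56 FPKM, was replicate 1 of summer Victoria. Over all genes this library correlated better with another group only by a narrow margin.

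VIT_214s0068g01400 reached its highest level in winter Victoria and its lowest in summer Victoria. It had 11.2, 11.4 and 16.8 FPKM at E-L 35, 208, 201 and 209 FPKM at E-L 36 and 219.6, 289.6 and 296 FPKM at E-L 38 in winter Victoria. In summer Victoria it had 1.15, 2.21 and 1.83 FPKM at E-L 35, 18.4, 1.64 and 3.47 FPKM at E-L 36 and 6.14, 11.9 and 15.8 FPKM at E-L 38. The crops of Victoria did not overlap at any stage. Winter Muscat Superior berries had 15.7, 16.5 and 14.8 FPKM at E-L 35, 20.7, 22.1 and 58.2 FPKM at E-L 36 and 122, 111 and 131 FPKM at E-L 38. In summer Muscat Superior it had 9.06, 10.9 and 15.4 FPKM at E-L 35, 66.0, 48.6 and 61.6 FPKM at E-L 36 and 70.7, 70.9 and 91.4 FPKM at E-L 38. At E-L 36 in Muscat Superior, replicates 1 and 2 of the winter crop lay below all 3 summer replicates and replicate 3 within their range.

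Within each crop, the replicates of VIT_215s0021g00540 in Muscat Superior lay below those in Victoria at every stage, though across crops the cultivars overlapped at E-L 38. Its winter Muscat Superior values were 2.03, 2.27 and 1.11 FPKM at E-L 35, 4.70, 5.11 and 6.95 FPKM at E-L 36 and 38.2, 44.1 and 83.7 FPKM at E-L 38. Summer Muscat Superior berries had 1.28, 1.68 and 1.96 FPKM at E-L 35, 5.52, 8.84 and 5.79 FPKM at E-L 36 and 15.9, 12.5 and 28.9 FPKM at E-L 38. At harvest the Muscat Superior means, 55.3 FPKM in winter and 19.1 FPKM in summer, lay below the onset means of Victoria, 59.2 FPKM in winter and 34.2 FPKM in summer. In winter Victoria it had 58.6, 62.3 and 56.7 FPKM at E-L 35, 123, 138 and 128 FPKM at E-L 36 and 189, 242 and 246 FPKM at E-L 38. Summer Victoria berries had 41.1, 33.6 and 27.9 FPKM at E-L 35, 126, 87.2 and 85.4 FPKM at E-L 36 and 118, 141 and 71.3 FPKM at E-L 38.

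VIT_205s0049g01780 was higher in the winter crop of both cultivars at each stage, with no overlap between crops. In winter Muscat Superior it had 16.7, 17.4 and 17.8 FPKM at E-L 35, 47.0, 45.6 and 53.6 FPKM at E-L 36 and 60.7, 45.7 and 57.9 FPKM at E-L 38. Its summer Muscat Superior values were 1.51, 2.56 and 3.18 FPKM at E-L 35, 3.42, 21.3 and 14.0 FPKM at E-L 36 and 4.16, 17.9 and 3.73 FPKM at E-L 38. At E-L 38 its summer Muscat Superior mean rested mostly on replicate 2. Winter Victoria berries had 10.5, 13.4 and 46.9 FPKM at E-L 35, 103, 93.1 and 92.9 FPKM at E-L 36 and 109, 80.9 and 81.3 FPKM at E-L 38. Its summer Victoria values were 0.30, 0.42 and 0.19 FPKM at E-L 35, 5.64, 7.52 and 5.90 FPKM at E-L 36 and 8.50, 5.91 and 1.41 FPKM at E-L 38. Its lowest count in any library was 4, so the summer Victoria values at E-L 35 carry the widest counting error among the 7 genes.

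VIT_214s0066g01710 had the lowest highest level of the 7, 43.5 FPKM in winter Muscat Superior at E-L 38. Winter Muscat Superior berries had 8.00, 7.09 and 7.06 FPKM at E-L 35, 29.7, 30.5 and 19.4 FPKM at E-L 36 and 43.5, 30.3 and 35.6 FPKM at E-L 38. In summer Muscat Superior it had 3.77, 4.87 and 5.14 FPKM at E-L 35, 24.4, 8.70 and 16.1 FPKM at E-L 36 and 27.4, 23.6 and 21.2 FPKM at E-L 38. Its E-L 36 replicates in summer Muscat Superior spread widely, and their highest value lay within the E-L 38 range. Its winter Victoria values were 2.17, 3.63 and 7.0 FPKM at E-L 35, 23.1, 21.3 and 20.6 FPKM at E-L 36 and 34.3, 21.8 and 26.0 FPKM at E-L 38. In summer Victoria it had 1.72, 2.76 and 1.93 FPKM at E-L 35, 6.97, 2.56 and 2.72 FPKM at E-L 36 and 3.46, 7.46 and 9.44 FPKM at E-L 38. When the 12 group means of each gene were put in order, the replicates of 6 to 10 of the 11 neighbouring pairs overlapped, most often for this gene.

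**Figure D2:**
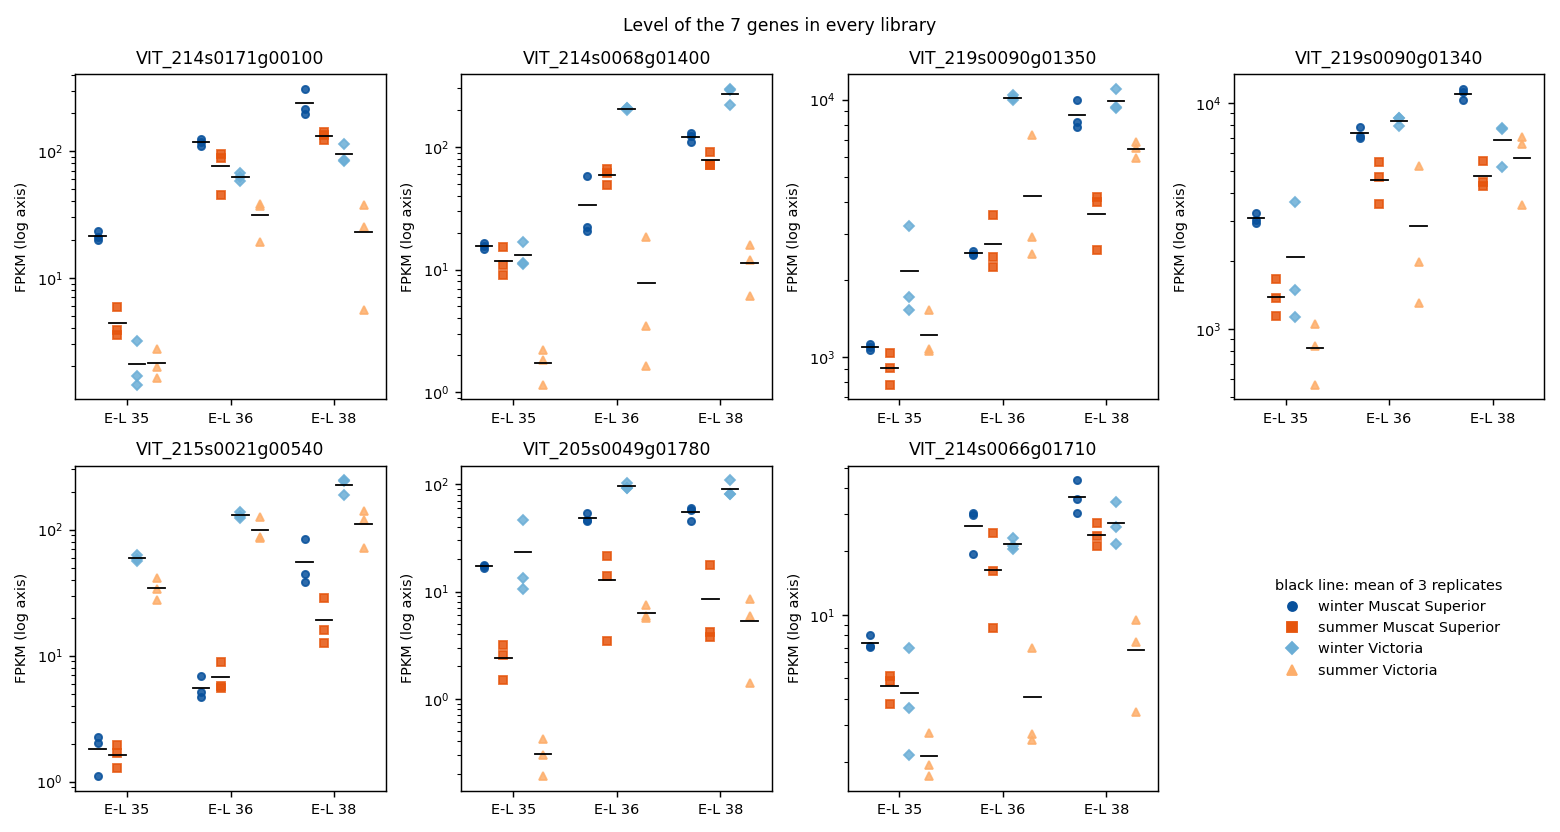
FPKM (log axis) of each of the 7 genes in every library by stage, with 1 marker shape for each combination of cultivar and crop and a black line at the mean of 3 replicates. By group means, summer Victoria is the lowest series at each stage for VIT_214s0068g01400, VIT_205s0049g01780 and VIT_214s0066g01710. Its replicates overlap those of summer Muscat Superior for VIT_205s0049g01780 at E-L 36 and E-L 38. For VIT_214s0066g01710 at E-L 35 they overlap those of winter Victoria. Within each crop the cultivars do not overlap for VIT_215s0021g00540.

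On the log2 scale, most of the rise had taken place by E-L 36. Timing was expressed as the share of the log2 rise between the E-L 35 and E-L 38 means (FPKM + 0.1) that was reached at the E-L 36 mean. Where the E-L 36 mean lies between the other means, the share of the rise in FPKM itself is smaller. In winter Muscat Superior, VIT_214s0171g00100 had means of 21.4, 118 and 240 FPKM and a log2 share of 0.704. In FPKM its E-L 36 mean was nearer to that at E-L 35. Because both ends chose the genes, these shares are a description without a test. Over the 28 gene and combination pairs the median share was 0.821 and the range 0.325 to 1.33. In 3 pairs the share was under 0.5, here called late, in 19 it was 0.5 to 1, and in 6 the E-L 36 mean was above the E-L 38 mean. In only 1 of these 6, VIT_219s0090g01340 in winter Victoria, did all E-L 38 replicates lie below all E-L 36 replicates. No share over all genes is given beside this count. The locus shares reads with VIT_219s0090g01350, so its value alone is uncertain. Summed, the pair held 2.66% to 2.82% of all FPKM in winter Victoria at E-L 36 and 2.54% to 2.59% at E-L 38.

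With all libraries, winter Muscat Superior had the lowest median share, 0.680, against 0.839 in summer Muscat Superior, 0.912 in winter Victoria and 0.804 in summer Victoria. It held all 3 late rises: VIT_215s0021g00540 had reached 0.325 of its rise, VIT_214s0068g01400 0.373 and VIT_219s0090g01350 0.403. By replicate these shares ranged from 0.274 to 0.388, from 0.135 to 0.641 and from 0.398 to 0.413, so the second rests in part on which E-L 36 library is read. For the summed pair of consecutive identifiers the share in winter Muscat Superior was 0.553, just past 0.5, against 0.897 in summer Muscat Superior, 1.07 in winter Victoria and 0.698 in summer Victoria. The gene with the latest rise over the 4 combinations was VIT_215s0021g00540, with a median share of 0.577. The earliest was VIT_205s0049g01780, with 1.06, whose E-L 36 mean was above its E-L 38 mean in 3 of 4 combinations. In each of these 3 the replicates of both stages overlapped. Its share in summer Muscat Superior, 1.33, spanned 0.271 to 1.73 by replicate.

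The place of summer Victoria in this order rested on replicate 1 at E-L 36 and at E-L 38. Without these 2 libraries its median share was 0.471 in place of 0.804, and 4 of its genes had shares under 0.5. VIT_214s0066g01710 had 0.151, VIT_214s0068g01400 0.183, VIT_219s0090g01340 0.371 and VIT_219s0090g01350 0.471. With them out, VIT_205s0049g01780 stood at 3.66 FPKM at E-L 38 and no longer met the level, which leaves 6 genes. Leaving out replicate 1 of summer Muscat Superior at E-L 36 as well gave that combination a median share of 0.818.

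**Figure D3:**
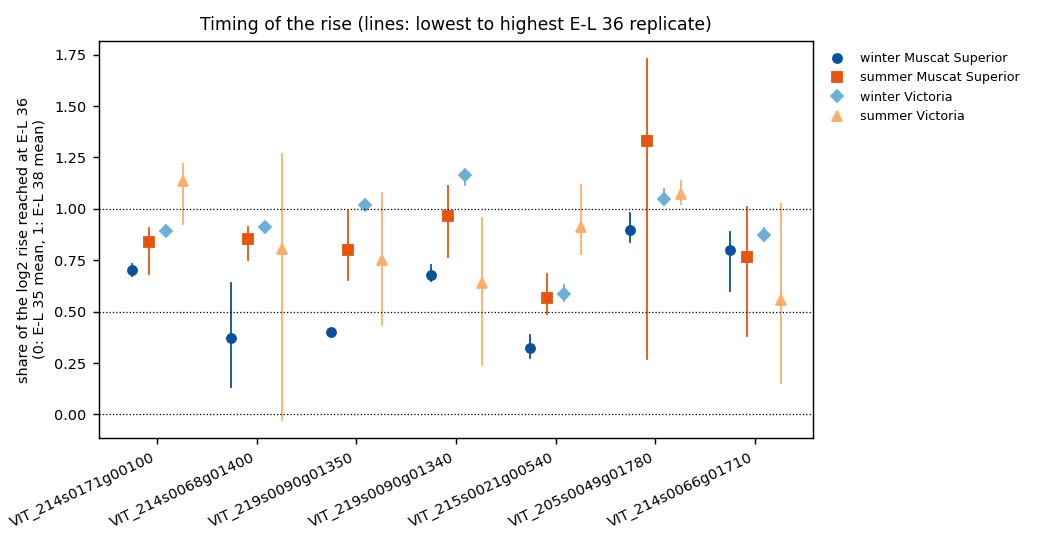
Share of the log2 rise reached at E-L 36 for each gene and combination (0 is the E-L 35 mean and 1 the E-L 38 mean), with lines from the lowest to the highest E-L 36 replicate. The 3 points under 0.5 are all winter Muscat Superior, and the lines of summer Victoria are long, reaching from -0.03 to 1.27 for VIT_214s0068g01400.

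The crops were compared at each stage within each cultivar with edgeR's quasi-likelihood test on the deposited counts of 19736 genes, all 7 among them, and a gene was called at a Benjamini-Hochberg adjusted p under 0.05. The rule did not use this contrast, though the E-L 35 and E-L 38 libraries are those that chose the genes. The E-L 36 libraries took no part in the choice. Wherever a difference between crops was called, the gene was higher in the winter crop. Of 42 gene and stage comparisons, 25 were called higher, 0 lower, and 39 had a positive log2 fold change. At E-L 36 alone, 6 of 7 genes were called higher in Victoria, against 24.9% of all genes. In Muscat Superior it was 1 of 7, against 21%. At that stage 7 genes in Victoria and 4 in Muscat Superior had a positive value. Over all genes tested, 9.33% to 26.5% were called higher in a comparison and 48.1% to 50.4% had a positive value. The 42 are not independent, since each gene recurs at every stage and VIT_219s0090g01340 and VIT_219s0090g01350 share reads.

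In Victoria, 6 of 7 genes were higher in the winter crop at E-L 35, where 21.8% of all genes tested were called higher. At E-L 36 it was again 6 of 7, against 24.9% of all genes, and at E-L 38 it was 5 of 7, against 26.5%. In either direction, 42.1% of all genes were called at E-L 35, 50.7% at E-L 36 and 54.3% at E-L 38. None was called lower, where 20.3%, 25.9% and 27.8% of all genes were at the 3 stages in order. The median log2 fold change of the 7 genes was 1.13 at E-L 35, 1.57 at E-L 36 and 1.98 at E-L 38, against -0.01, -0.02 and -0.03 over all genes.

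VIT_205s0049g01780 and VIT_214s0068g01400 had the widest crop differences in Victoria. The winter Victoria replicates at E-L 36 differed by little more than counting noise, so their SDs may understate the spread between pools of berries. At E-L 36, VIT_205s0049g01780 averaged 96.4 ± 5.86 FPKM in winter and 6.35 ± 1.02 FPKM in summer berries (SD, n = 3 each), a log2 fold change of 3.97 (SE 0.59, adjusted p = 3.47e-06, edgeR). At E-L 35 its log2 fold change was 6.37 (SE 0.81, adjusted p = 6.97e-07, edgeR) and at E-L 38 it was 4.08 (SE 0.60, adjusted p = 2.32e-06, edgeR). VIT_214s0068g01400 averaged 206 ± 4.38 FPKM in winter and 7.83 ± 9.19 FPKM in summer berries at E-L 36, a log2 fold change of 4.66 (SE 0.53, adjusted p = 4.8e-08, edgeR). Its difference at E-L 35 was 3.07 on the log2 scale and at E-L 38 4.57, with adjusted p-values of 0.000163 and 3.7e-08. Both genes kept these calls in each of the 15 alternatives run for them at each stage.

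The other genes differed less between the crops of Victoria. VIT_214s0066g01710 averaged 21.7 ± 1.29 FPKM in winter and 4.08 ± 2.50 FPKM in summer berries at E-L 36, with a log2 fold change of 2.39 (SE 0.38, adjusted p = 8.54e-06, edgeR). At E-L 35 its call was close to the threshold (1.13 on the log2 scale, adjusted p = 0.0393), its replicates overlapped, and the call was lost in 9 of 15 alternatives, 3 of them with 1 library left out. VIT_214s0171g00100 did not differ detectably at E-L 35 (2.09 ± 0.93 FPKM in winter and 2.12 ± 0.59 FPKM in summer, adjusted p = 0.941) and was higher by 1.03 at E-L 36 and 2.02 at E-L 38 on the log2 scale, with adjusted p-values of 0.0219 and 6.67e-05. The E-L 36 call was lost in 3 of 15 alternatives, among them without summer replicate 3 and without winter replicate 2. VIT_215s0021g00540 was higher in winter at E-L 35 (log2 fold change 0.94, adjusted p = 0.00864) and at E-L 38 (1.03, adjusted p = 0.00216), and at E-L 36 it had a log2 fold change of 0.41 that did not pass (adjusted p = 0.21). The summed pair VIT_219s0090g01340 and VIT_219s0090g01350 was higher in winter by 1.16 at E-L 35 (adjusted p = 0.00364) and by 1.37 at E-L 36 (adjusted p = 0.000587) on the log2 scale. At E-L 38 its difference of 0.48 did not pass (adjusted p = 0.188). Replicate 3 of winter Victoria at E-L 35 was the highest of its group for 5 of the 7 genes, and without it 3 of the 6 calls of that stage were left, those of VIT_219s0090g01340, VIT_219s0090g01350 and VIT_214s0066g01710 being lost.

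In Muscat Superior, at E-L 35, 2 of 7 were higher in the winter crop, where 9.33% of all genes tested were called higher. At E-L 36, 1 of 7 was higher, against 21% of all genes, and at E-L 38, 5 of 7, against 22.7%. In either direction, 17.6% of all genes were called at E-L 35, 42.6% at E-L 36 and 45.1% at E-L 38. None was called lower, against 8.25%, 21.6% and 22.4% of all genes at the 3 stages in order. The median log2 fold change of the 7 genes was 0.63, 0.56 and 1.27, against 0.00, -0.02 and 0.00 over all genes.

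The gene that differed at all 3 stages was VIT_205s0049g01780. It averaged 48.7 ± 4.27 FPKM in winter and 12.9 ± 9.01 FPKM in summer Muscat Superior at E-L 36, with a log2 fold change of 1.84 (SE 0.54, adjusted p = 0.00728, edgeR). Its log2 fold change was 2.79 at E-L 35 (adjusted p = 0.00243) and 2.73 at E-L 38 (adjusted p = 0.000275). The E-L 35 call was lost when near-identical libraries were summed, which merged all winter replicates of that group. VIT_214s0171g00100 averaged 21.4 ± 1.80 FPKM in winter and 4.40 ± 1.24 FPKM in summer berries at E-L 35, a log2 fold change of 2.23 (SE 0.41, adjusted p = 0.000421, edgeR). Its difference at E-L 36 did not pass (0.56, adjusted p = 0.225), and its call at E-L 38 was close to the threshold (0.93, adjusted p = 0.0385) and was lost in 10 of 15 alternatives, 5 of them with 1 library left out. VIT_219s0090g01340 stood next to the threshold at E-L 35 (1.11, adjusted p = 0.0501). Summed with VIT_219s0090g01350, the pair was further from it (0.73, adjusted p = 0.105, edgeR), and at E-L 36 the summed difference was 0.28 (adjusted p = 0.486, edgeR).

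At harvest 3 further genes were higher in winter Muscat Superior. VIT_215s0021g00540 averaged 55.3 ± 24.7 FPKM in winter and 19.1 ± 8.63 FPKM in summer berries, with a log2 fold change of 1.60 (SE 0.29, adjusted p = 6.86e-05, edgeR). VIT_219s0090g01350 and VIT_219s0090g01340 had log2 fold changes of 1.34 and 1.27, with adjusted p-values of 0.000465 and 0.0102, and their sum one of 1.31 (adjusted p = 0.00114). At E-L 36 these 3 genes had log2 fold changes of -0.34, -0.18 and 0.61, none of which passed. VIT_214s0068g01400 was the gene with the most negative value in any crop comparison, -0.82 at E-L 36 in Muscat Superior (33.6 ± 21.3 FPKM in winter, 58.7 ± 9.02 FPKM in summer, adjusted p = 0.148). Without replicate 3 of the winter group it was called lower in winter, at -1.61 (adjusted p = 0.00916), and over its alternatives the adjusted p lay between 0.00916 and 0.489. Without replicate 1 of the summer group, VIT_214s0066g01710 was called higher in winter at that stage, at 1.02.

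**Figure D4:**
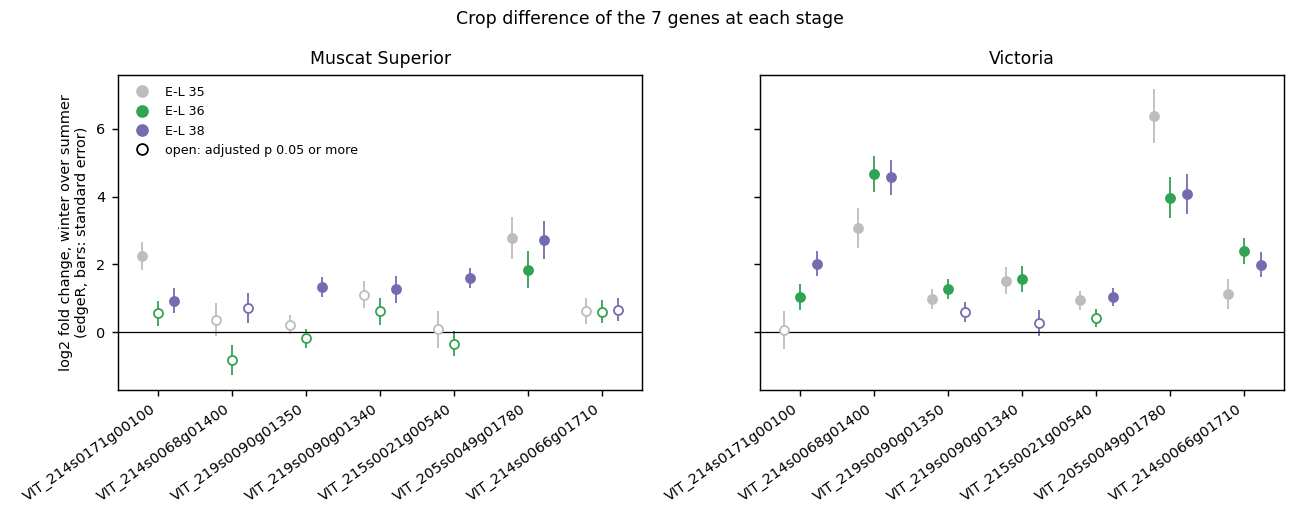
Log2 fold change of the winter over the summer crop (edgeR, bars show the standard error) at each stage for Muscat Superior on the left and Victoria on the right, with open markers where the adjusted p was 0.05 or more. Most points lie above 0, and the highest are VIT_205s0049g01780 and VIT_214s0068g01400 in Victoria.

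The cultivars were compared at E-L 36, the stage that the choice of genes did not use. In the summer crop, 3 of 7 genes were higher in Muscat Superior than in Victoria and 1 was lower, where 18.8% and 19.2% of all genes were called higher and lower and 38% either way. VIT_214s0068g01400 averaged 58.7 ± 9.02 FPKM in Muscat Superior and 7.83 ± 9.19 FPKM in Victoria, with a log2 fold change of 2.97 (SE 0.50, adjusted p = 3.79e-05, edgeR). VIT_214s0066g01710 was higher by 2.11 and VIT_214s0171g00100 by 1.44 on the log2 scale, with adjusted p-values of 8.75e-05 and 0.00318. VIT_215s0021g00540 was lower in Muscat Superior, at 6.72 ± 1.84 FPKM against 99.5 ± 22.9 FPKM in Victoria (a log2 difference of -3.73 with SE 0.33, and an adjusted p = 1.19e-09 in edgeR). Without replicate 1 of summer Victoria, VIT_219s0090g01340 was called higher in Muscat Superior as well.

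In the winter crop, 1 of 7 genes was higher in Muscat Superior and 3 were lower. Of all genes, 17.6% and 17.4% were called higher and lower and 35% either way. Here too the SDs of winter Victoria come from replicates that differed by little more than counting noise, and may be too small. VIT_215s0021g00540 was again lower in Muscat Superior, at 5.59 ± 1.20 FPKM against 130 ± 7.34 FPKM in Victoria (a log2 difference of -4.48 with SE 0.34, and an adjusted p = 6.93e-11 in edgeR). VIT_214s0068g01400, higher in Muscat Superior in summer, was lower there in winter, at 33.6 ± 21.3 FPKM against 206 ± 4.38 FPKM (a log2 difference of -2.51 with SE 0.47, and an adjusted p = 0.000122 in edgeR). The summed pair of consecutive identifiers averaged 9847 ± 453 FPKM in winter Muscat Superior and 18499 ± 615 FPKM in winter Victoria (log2 fold change -1.05, adjusted p = 0.00915), and in summer it differed by 0.04 (adjusted p = 0.929). The difference of VIT_219s0090g01350 alone in winter was -1.96 (adjusted p = 7.78e-06) and that of VIT_219s0090g01340 alone -0.13 (adjusted p = 0.831). VIT_214s0171g00100 was higher in winter Muscat Superior by 0.97 on the log2 scale (adjusted p = 0.0408), a call lost in 11 of 15 alternatives, among them each of the 6 that left out 1 library.

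Whether the crop difference at E-L 36 itself differed between the cultivars was tested as an interaction, the log2 crop effect in Muscat Superior minus that in Victoria. It was called for 3 of 7 genes, all negative, where 9.44% of all genes were called in that direction, 9.23% in the other and 18.7% in either. VIT_214s0068g01400 had the widest difference, -5.48 (SE 0.69, adjusted p = 3.37e-06, edgeR). VIT_214s0066g01710 had -1.79 (SE 0.51, adjusted p = 0.014, edgeR), a call lost without replicate 1 of summer Muscat Superior, and VIT_219s0090g01350 had -1.46 (SE 0.41, adjusted p = 0.0121, edgeR). For the summed pair the interaction was -1.09 and did not pass (adjusted p = 0.0783), so the call on VIT_219s0090g01350 depends on how shared reads were divided. VIT_205s0049g01780, with -2.13, narrowly missed the threshold (adjusted p = 0.0533). Without the 3 libraries closest to another group, 5 of 7 were called, with VIT_214s0068g01400 at -7.07. The share of all genes called in that fit was not computed, so this count has no background beside it.

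The loci next to the abundant pair did not all follow it. VIT_219s0090g01360, the next identifier, had E-L 38 over E-L 35 ratios of 0.614 in winter Muscat Superior, 1.27 in summer Muscat Superior, 0.443 in winter Victoria and 1.28 in summer Victoria. VIT_219s0090g01370 had ratios of 6.47, 3.58, 2.21 and 2.81 in the same order of groups and at E-L 38 was the most abundant of the run in each combination, at 15705 ± 1116 FPKM in winter Muscat Superior and 25573 ± 1584 FPKM in winter Victoria. Summed to 1 feature, the 4 loci had ratios of 4.41, 2.85, 2.09 and 2.79, under 3 in 3 combinations, and the 4 held between 0.865% and 7.63% of all FPKM in a library. The ratios of this run are a description and were not tested.

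**Figure D5:**
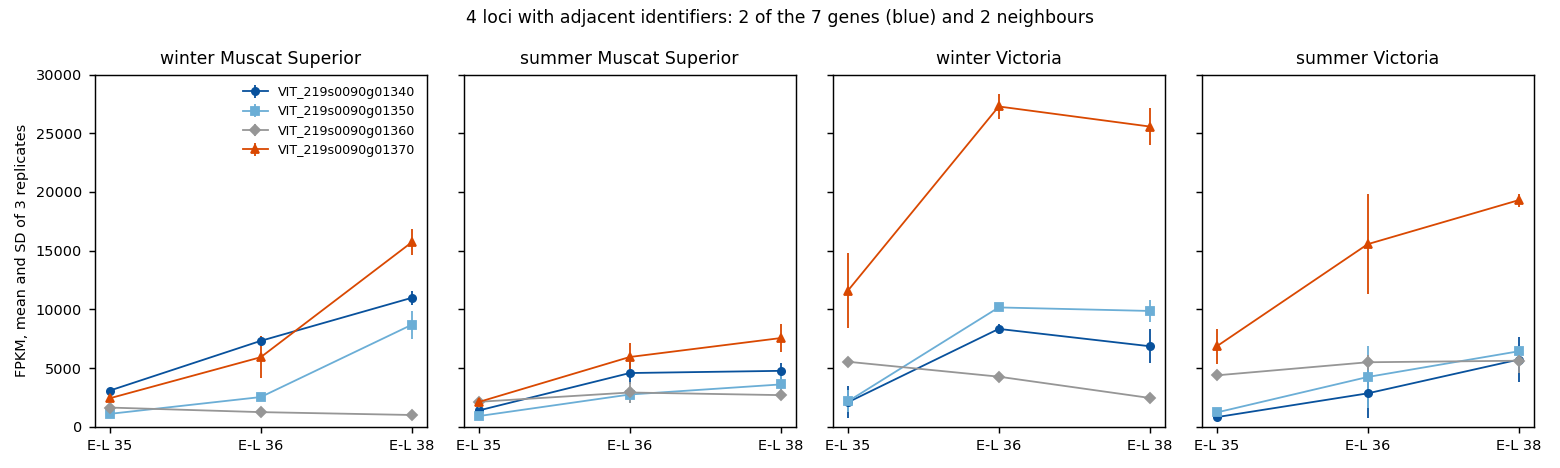
Mean FPKM with SD of 3 replicates at each stage for 4 loci with consecutive identifiers, with 1 panel for each combination of cultivar and crop. VIT_219s0090g01340 and VIT_219s0090g01350 are 2 of the 7 genes, and at E-L 38 in winter Victoria VIT_219s0090g01370 is at 25573 FPKM and VIT_219s0090g01360 at 2455 FPKM.

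The identifiers around the other 5 genes showed no such run: of the 4 nearest identifiers of each, none met the rule, and VIT_205s0049g01790, the identifier after VIT_205s0049g01780, had E-L 38 over E-L 35 ratios of 0.826 in winter Muscat Superior, 0.627 in summer Muscat Superior, 0.697 in winter Victoria and 1.03 in summer Victoria. The 7 genes were shorter than the 8940 genes at that level, with a median deposited length of 1153 bases against 1861, a description with no test. A single transcript was listed for 4 of the 7 (57.1%, against 50.2% of the 8940). All 7 had reads in all 36 libraries, and the 5 outside the pair had whole counts in all 36. The median coefficient of variation between replicates was 25.1% at E-L 35, 21.0% at E-L 36 and 18.2% at E-L 38, and single groups reached 117% at E-L 36.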

How the data were processed

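Gene-level values of 36 berry libraries were read from the files the authors deposited. Each file gives, per gene, expected (estimated) counts, FPKM and a transcript length, per the file headers. Bowtie is the aligner named in the submitters' processing notes. For the genome build, the annotation and the program that counted reads, the entry is the same: not given in the sources used here. No column belonged to another series (0 columns). The authors' deposited expected counts were rounded to whole numbers and fitted in edgeR 4.0.16 (R 4.3.3) with TMM normalization, filterByExpr and a quasi-likelihood test, in a model of all 12 groups with 24 residual degrees of freedom. Of 28119 genes, 19736 passed the filter, all 7 members among them. P-values were adjusted by Benjamini-Hochberg over those genes. The authors' deposited FPKM values gave levels, ratios and timing, computed with pandas 2.3.3. Depth was 5624449 to 18606068 counts, and a count of 3 was taken as the floor. The procedure was checked on simulated counts, drawn as independent replicates. They lacked the near-identical winter replicates and the libraries closer to another group, so the check does not cover these.

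The members, comparisons and lists were chosen with earlier results of these data known. Genes were named if they met the rule, with the 3 nearest on each side of its thresholds. The 4 loci with consecutive identifiers and VIT_205s0049g01790 were named after their values were seen. The 11 lists by product name and the tissue markers gave no result, since 0 of 28119 identifiers matched the reference table. Alternatives covered normalization, filter, tool (DESeq2 1.42.0, limma 3.58.1), pseudocount, libraries fitted, a replicate block, summed near-identical libraries and left-out libraries. Replicate numbers were not taken to pair the samples: same-numbered deviations correlated between -0.26 and 0.25, and in 0 of 8 comparisons were all above 0.1. This check cannot exclude a weak pairing. Leaving out the summer Muscat Superior library and summing adjacent loci were added after seeing the data.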

Additional observations from a re-analysis of the deposited data

Results flagged for a closer look

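The crop difference at E-L 36 differed between the cultivars for 3 of the 7 genes, by the interaction test in edgeR over 19736 genes. Over all genes tested, 18.7% were called in either direction and 9.44% in the negative one, that of all 3. For VIT_214s0068g01400 the log2 crop effect in Muscat Superior minus that in Victoria was -5.48 (SE 0.69, adjusted p = 3.37e-06), and this call held in every alternative run. For VIT_214s0066g01710 it was -1.79 (SE 0.51, adjusted p = 0.014), and the call was lost without replicate 1 of summer Muscat Superior at E-L 36, in the fit to the compared groups alone and with near-identical libraries summed. For VIT_219s0090g01350 it was -1.46 (SE 0.41, adjusted p = 0.0121), and the call was lost in the fit to the compared groups alone, with near-identical libraries summed and when its shared reads were pooled with VIT_219s0090g01340. Summing near-identical libraries merged all winter Victoria replicates at E-L 36, so that setting has no replicates there. Groups of 3 libraries are too small for a search for single outlying samples.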

How the results depend on the processing

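The number of genes meeting the rule was 24 at a ratio of 2, 2 at a ratio of 5 and 12 at a level of 1 FPKM. It was 5 with a pseudocount of 1, 5 at a level of 10 FPKM, 9 on TMM-scaled FPKM, 8 with medians of replicates, 6 without the 2 summer Victoria libraries that stand apart and 5 with the 4 adjacent loci summed. With 1 library left out it lay between 4 (without summer Victoria E-L 38 replicate 2) and 11 (without winter Victoria E-L 35 replicate 3), and VIT_214s0171g00100, VIT_214s0068g01400 and VIT_219s0090g01350 met the rule in all 24 such sets. The median timing share lay between 0.801 and 0.882 with 1 library left out and between 0.809 and 0.868 in the other settings.

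Fitted to the compared groups alone, the winter against summer comparison called 3 genes in Victoria at E-L 35, and 4 at E-L 35 and 2 at E-L 36 in Muscat Superior. Summing near-identical libraries left 30 libraries and merged all replicates of winter Muscat Superior at E-L 35 and of winter Victoria at E-L 36. Comparisons with those groups then had no replicates on the winter side, so their number of calls is not given. Without the 2 summer Victoria libraries, Muscat Superior at E-L 36 had 2 calls, 1 in each direction. It also had 2 without the summer Muscat Superior library closest to another group, and without the 3 such libraries the interaction had 5. With 1 library left out, calls in Victoria numbered 3 to 6 at E-L 35 (lowest without winter replicate 3), 5 to 6 at E-L 36 and 5 at E-L 38. In Muscat Superior they numbered 2 at E-L 35, 1 to 2 at E-L 36 (2 without summer replicate 1 or winter replicate 3) and 4 to 5 at E-L 38. They numbered 4 to 5 between cultivars in summer, 3 in winter and 3 to 4 for the interaction. The shares of all genes called were not computed for the alternative fits.

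With the replicate number as a block, 5, 6 and 5 genes were called in Victoria at E-L 35, 36 and 38 and 2, 1 and 4 in Muscat Superior, 5 between cultivars in summer, 3 in winter and 3 for the interaction. Pairing by number was not seen in the check of same-numbered deviations, which cannot exclude it. Whether a call lost there marks a weaker effect cannot be told.

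Of 1008 values of single genes, 922 kept direction and call, 43 lost the call, 33 gained it and 10 reversed, none of the reversed being called in the fit to all libraries. VIT_214s0171g00100 in Victoria at E-L 35 gave -0.069 and -0.040 with limma on log2(FPKM + 0.1) and log2(FPKM + 1), and -0.10 and -0.27 without replicate 2 of the summer or of the winter group (-0.27 to 0.31 over the 6 left-out libraries). VIT_219s0090g01350 between cultivars in summer gave 0.20 without the 2 summer Victoria libraries and without replicate 1 of E-L 36 alone, and 0.31 without the 3 (-0.78 to 0.20 over left-out libraries). VIT_219s0090g01350 between crops of Muscat Superior at E-L 36 gave 0.029 without summer replicate 3 (-0.31 to 0.029). VIT_215s0021g00540 in Muscat Superior at E-L 35 gave -0.072 and -0.15 without summer replicate 1 or winter replicate 2 (-0.15 to 0.35). The cause of these changes was not tested. Counting error is widest for VIT_205s0049g01780, with 4 counts in its lowest library.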
